A study of Mus musculus with 18 samples.

Results

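The 33 genes described here make cholesterol and fatty acids or control that synthesis, and they were chosen by name from the 54532 genes of the deposited table. They comprise 18 enzymes of sterol synthesis, 6 genes of sterol sensing, SREBP control and sterol transport, and 9 genes of fatty acid synthesis and desaturation. RNA was measured by sequencing in macrophages grown from mouse tibial marrow. All mice, aged 2 to 3 months, carried Smad1 alleles flanked by loxP sites, and those labelled MyS1KO also carried LyzM-Cre, in which the lysozyme M gene drives Cre recombinase in myeloid cells. The 6 groups were floxed-labelled (Smad1 fl/fl) and knockout-labelled (Smad1 fl/fl with LyzM-Cre) cells that were untreated, given 10 ng/ml TGF-β1 or given 50 ng/ml BMP4 for 4 h, with 3 libraries numbered 1 to 3 in each. All cells had been cultured with CSF-1 and kept about 16 h without serum before the ligands were added. The comparisons ask whether the sterol branch and the fatty acid branch respond to each ligand, and whether the response depends on the genotype label.

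Sterol synthesis starts from acetyl-CoA in the cytosol, runs through mevalonate and squalene to lanosterol, and ends with a series of demethylations, reductions and isomerisations that yield cholesterol. Fatty acid synthesis starts from the same acetyl-CoA, which is carboxylated and built into palmitate, and elongases and desaturases then lengthen the chain and insert double bonds. The SREBP transcription factors drive both branches: SREBP2 mainly the sterol genes and SREBP1 mainly the fatty acid genes. When membranes hold little sterol, SCAP carries the SREBPs from the endoplasmic reticulum to the Golgi, where they are cleaved, and INSIG proteins hold the complex back when sterol is plentiful. Macrophages take up much cholesterol with the debris they clear, so synthesis, storage and export of sterol are closely tuned in these cells.

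The libraries held 15153296 to 24639163 counts, and all 33 genes passed the filter on low counts, as did 14684 genes in all. Macrophage markers summed to 9730 to 11200 CPM (counts scaled to a common library size with TMM factors) over the libraries, while the 5 adipocyte markers summed to at most 0.293 CPM. Neutrophil and progenitor markers summed to 51.6 to 133 CPM, and lymphoid, mast, erythroid and platelet markers to 151 to 261 CPM. Markers of fibroblasts and stroma reached 0.426 to 15.7 CPM and those of dendritic cells 0.67 to 2.27 CPM. Smad7, a usual TGF-β target, rose with TGF-β1 in both labels (log2 3.38 and 3.44). As a check of BMP4, Id3 was at 13.1, 12.9 and 20.7 CPM with BMP4 in knockout-labelled libraries (log2 3.66, edgeR adjusted p = 0.00509). In floxed-labelled libraries 1 to 3 it was at 1.88, 10.6 and 9.05 CPM with BMP4. Untreated, these held 0.814, 1.46 and 1.06 CPM, so library 1 differed little. Smad1 itself had a log2 difference of −0.22 between untreated knockout-labelled and floxed-labelled cells (26.8, 26 and 26 against 30, 30.8 and 31.1 CPM, edgeR adjusted p = 0.13). Lyz2, the gene that hosts Cre, went against the labels, with 13400 to 17800 CPM in the knockout-labelled libraries, 8120 to 9870 CPM in floxed-labelled numbers 2 and 3, and only 62.1, 37.6 and 74.3 CPM in the 3 floxed-labelled libraries numbered 1. Groups are therefore named by label, and calls of members in floxed-labelled cells are given with and without those 3 libraries where they differ. Whether a group's libraries stem from different mice is not stated, so p-values measure only the spread between libraries, which may be technical. In bulk RNA, fewer expressing cells and less RNA per cell cannot be told apart.

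Levels between genes are compared as FPKM, which divides counts by gene length. Among the sterol enzymes, group means were highest for Mvd, which makes isopentenyl diphosphate (30.1 to 36.8 FPKM over the 6 groups), the sterol demethylase Cyp51 (26.5 to 29.6 FPKM), Hmgcs1, which makes the precursor of mevalonate (25.9 to 28.9 FPKM), and the sterol oxidase Msmo1 (21 to 22.3 FPKM). The isomerase Ebp, the kinase Pmvk, squalene synthase Fdft1, squalene epoxidase Sqle, the thiolase Acat2 and the dehydrogenase Nsdhl followed, with group means between 11.3 and 17.7 FPKM. Group means of Idi1, Sc5d, Mvk, Dhcr7 and Lss lay between 4.61 and 11.7 FPKM. Hsd17b7 was at 3.18 to 3.85 FPKM and the sterol reductase Tm7sf2 at 1.85 to 2.11 FPKM. Fdps, which makes farnesyl diphosphate, was lowest, at 0.827 to 1.31 FPKM. Its count is uncertain, since 26.7% of its exonic bases are shared on the same strand with the annotated gene Gm43738. Fdft1 shares 18.3% of its exonic bases with Ctsb on the opposite strand and Tm7sf2 shares 12.1% with Vps51 on the same strand. Scap (13.2%), Hmgcs1 (12.1%) and Idi1 (9.2%) share exonic bases with genes on the opposite strand, and the sources used here do not say whether counting used strand.

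Among the regulators, Insig1 was highest (39.7 to 42.4 FPKM), followed by Srebf2 (29.9 to 36.5 FPKM). Srebf1 (12.1 to 14.3 FPKM) and Stard4, a cytosolic sterol carrier (12.3 to 13.1 FPKM), lay close together. Insig2 was at 8.79 to 9.49 FPKM and Scap at 4.95 to 5.82 FPKM. In the fatty acid branch, Acly, which makes cytosolic acetyl-CoA from citrate, and the desaturase Fads1 were highest, with group means of 43.6 to 51.0 and 38.9 to 68.7 FPKM. Fads2 (12.9 to 33.8 FPKM) and Scd2 (11.2 to 14.7 FPKM) followed. The length of Fads2 in the deposited table is 1508 bases, against 3295 exonic bases in GENCODE release M21, so its FPKM beside other genes is uncertain. Fatty acid synthase Fasn was at 6.74 to 8.63 FPKM, malic enzyme Me1 at 4.47 to 5.50 FPKM and the carboxylase Acaca at 2.13 to 2.55 FPKM. The elongase Elovl6 (0.793 to 1.36 FPKM) and the desaturase Scd1 (0.262 to 0.357 FPKM) were lowest, so of the paired stearoyl-CoA desaturases these cells held mainly Scd2 RNA. The lowest and highest group means of Fads1 and Fads2 differed more than those of the other abundant genes, and for both the highest mean was in floxed-labelled cells given TGF-β1.

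Promoter sequences show what the members share that their choice by pathway did not use. RefSeq windows (build GRCm38.p6) of 250 bases before to 50 bases after a start were at hand for 26 of the 33 genes, in 35 windows, and for all genes in 32851 windows. The letters CCAAT, on either strand, were present in 62.9% of the members' windows, in 77.8% of those of the sterol enzymes and in 42.9% of those of the fatty acid genes, against 37.4% of all windows. Of the 15 sterol enzymes with a window, 14 held CCAAT in at least 1 window, and Acat2 held none. The GC box GGGCGG was present in 74.3% of the members' windows and 35.7% of all windows. The Smad-type letters CAGAC were present in 54.3% and 49.6%. The core of a sterol response element, TCACNCCAC, was found for Hmgcs1 alone, in 2.86% of the members' windows against 1.24% of all. Both strands were searched, each motif was counted whether or not it overlapped another, and a match describes letters, not binding. Only exact matches within the windows were counted, so a gene without a match is not shown to lack the element. Below are the 250 bases before the start for 6 genes, written 5′ to 3′ in the direction of the gene, with CCAAT (or its reverse complement ATTGG) and the sterol response core in capitals. Mvk and Lss are shown because they were lower with TGF-β1 in both labels, and Fads2 because it was higher. Srebf2 is shown as the only regulator called by the main fit, and Hmgcs1 for its sterol response core. Msmo1 is shown as the enzyme that followed the rest of its branch most closely from library to library.
Mvk (chr5:114444019-114444268, plus strand): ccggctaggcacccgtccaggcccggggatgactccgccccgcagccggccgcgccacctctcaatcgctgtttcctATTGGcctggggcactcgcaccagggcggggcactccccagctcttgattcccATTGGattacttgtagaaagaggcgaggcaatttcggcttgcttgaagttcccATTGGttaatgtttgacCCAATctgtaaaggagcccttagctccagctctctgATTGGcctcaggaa
Lss (chr10:76531355-76531604, plus strand): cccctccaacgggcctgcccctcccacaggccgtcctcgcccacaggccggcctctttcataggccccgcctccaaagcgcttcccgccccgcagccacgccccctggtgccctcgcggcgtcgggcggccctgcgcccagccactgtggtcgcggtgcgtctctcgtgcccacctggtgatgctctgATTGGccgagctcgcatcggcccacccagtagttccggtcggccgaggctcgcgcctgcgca
Srebf2 (chr15:82147019-82147268, plus strand): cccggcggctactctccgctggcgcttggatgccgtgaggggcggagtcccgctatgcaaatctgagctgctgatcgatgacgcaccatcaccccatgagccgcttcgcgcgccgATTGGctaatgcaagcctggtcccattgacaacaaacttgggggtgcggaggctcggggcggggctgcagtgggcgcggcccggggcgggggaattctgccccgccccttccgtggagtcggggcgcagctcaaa
Hmgcs1 (chr13:119690101-119690350, plus strand): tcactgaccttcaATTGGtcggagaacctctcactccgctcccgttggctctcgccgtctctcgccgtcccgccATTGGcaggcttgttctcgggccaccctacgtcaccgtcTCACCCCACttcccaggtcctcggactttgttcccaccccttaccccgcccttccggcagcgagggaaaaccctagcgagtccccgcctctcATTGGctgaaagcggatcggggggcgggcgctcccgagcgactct
Msmo1 (chr8:64733579-64733828, minus strand): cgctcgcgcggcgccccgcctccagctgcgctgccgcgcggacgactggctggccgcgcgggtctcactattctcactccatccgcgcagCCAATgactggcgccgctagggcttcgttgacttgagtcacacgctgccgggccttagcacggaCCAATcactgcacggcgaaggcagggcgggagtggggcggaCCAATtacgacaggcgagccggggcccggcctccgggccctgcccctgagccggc
Fads2 (chr19:10101504-10101753, minus strand): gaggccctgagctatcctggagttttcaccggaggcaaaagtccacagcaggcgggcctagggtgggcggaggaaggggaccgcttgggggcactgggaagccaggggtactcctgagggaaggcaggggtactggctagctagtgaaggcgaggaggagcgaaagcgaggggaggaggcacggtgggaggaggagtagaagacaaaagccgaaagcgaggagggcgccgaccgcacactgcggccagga
The Mvk window held 5 CCAAT letters in all, at −173, −120, −67, −50 and −14 from the start, and Msmo1 held 3. Hmgcs1 held its sterol response core at −137, between CCAAT letters at −176 and −45. The windows of Lss and Srebf2 held 1 CCAAT each, at −62 and −135. Fads2 held neither CCAAT nor CAGAC in its window, and had a GC box.

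In floxed-labelled cells the main fit, which leaves out the library number, called few of these genes with TGF-β1. With the library number as a block 5 members were called higher and 10 lower, beside 20.1% and 19.5% of all genes tested, as described below. The calls of the main fit come first. Fads1 and Fads2 rose, and Mvk, Lss and Elovl6 fell (edgeR quasi-likelihood test, adjusted p under 0.05 over all genes). These 5 are 15.2% of the 33 genes, beside 33% of all genes tested that were called in this comparison (17% higher and 16% lower). In knockout-labelled cells the same 5 genes were called in the same direction, and Mvd, Dhcr7, Srebf2 and Acly also fell. These are 2 higher and 7 lower, or 27.3% of the 33 genes, beside 34.6% of all genes tested (17.6% higher and 17.1% lower). Median log2 fold changes were −0.10 in floxed-labelled and −0.13 in knockout-labelled cells for the sterol enzymes, −0.00 and −0.06 for the regulators, 0.11 and −0.03 for the fatty acid genes, and 0.00 in both labels for all genes tested. Without the floxed-labelled libraries numbered 1 the floxed-labelled median of the fatty acid genes was 0.27.

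**Figure D1:**
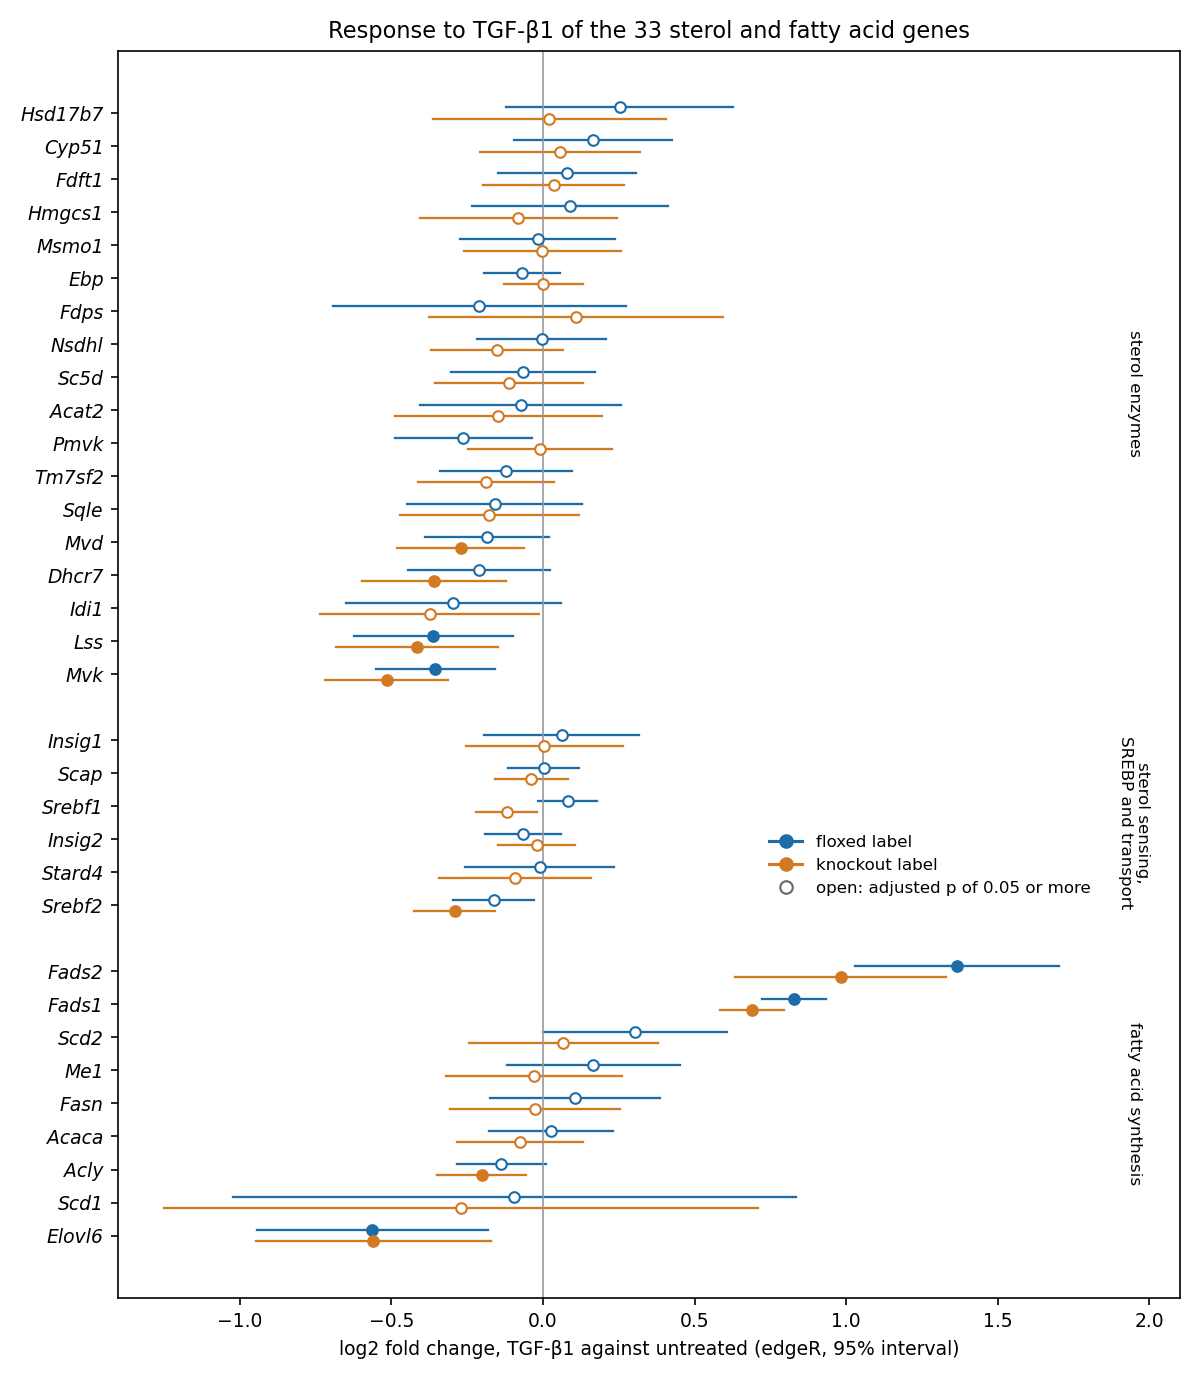
Log2 fold change of each of the 33 genes with TGF-β1 against no treatment, with its 95% interval, in floxed-labelled (blue) and knockout-labelled (orange) cells; filled points have an edgeR adjusted p under 0.05. Fads2 and Fads1 stand to the right of all others in both labels, and the filled points of the sterol enzymes all lie left of 0.

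Early in the sterol pathway, Mvk, the kinase that phosphorylates mevalonate, fell in both labels. Its levels were 27.0, 22.4 and 25.2 CPM in floxed-labelled libraries 1 to 3 without ligand and 21.3, 20 and 17.2 CPM with TGF-β1. In knockout-labelled libraries they were 27.7, 26.2 and 24.8 CPM untreated and 19.1, 17.7 and 18.3 CPM with TGF-β1. The libraries of the treated and untreated groups did not overlap in either label. The log2 fold changes were −0.35 (SE 0.09, edgeR adjusted p = 0.00583) and −0.52 (SE 0.10, edgeR adjusted p = 0.000288). With BMP4, Mvk was at 22.9, 22 and 24.7 CPM in floxed-labelled and 23.1, 26.7 and 28.6 CPM in knockout-labelled libraries, which overlapped the untreated ones.

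The enzymes that follow Mvk showed smaller differences. Pmvk, the next kinase, was at 30.5, 26.9 and 27.8 CPM untreated and 26, 23.7 and 21.5 CPM with TGF-β1 in floxed-labelled libraries, and at 17.8, 23.7 and 24.3 against 19.6, 22.9 and 22.8 CPM in knockout-labelled ones. The floxed-labelled groups did not overlap, yet the difference did not pass the test (log2 −0.26, SE 0.11, edgeR adjusted p = 0.0699). Mvd was at 77.9, 56.6 and 71.7 CPM untreated and 61.8, 56.6 and 63.0 CPM with TGF-β1 in floxed-labelled libraries, where the groups overlapped. In knockout-labelled libraries Mvd fell from 63.2, 67.4 and 73.0 to 53.9, 55.3 and 59.3 CPM, without overlap (log2 −0.27, SE 0.10, edgeR adjusted p = 0.0409). Idi1, which interconverts the isoprenoid building blocks, was at 47.5, 28.5 and 40 against 34.0, 28.7 and 32.1 CPM in floxed-labelled libraries. In knockout-labelled libraries it was at 34.7, 41.5 and 47.4 CPM untreated and 27.5, 33.7 and 33.9 CPM with TGF-β1, with a log2 fold change of −0.37 (SE 0.17) that did not pass the test (edgeR adjusted p = 0.106). Its untreated libraries thus differed from each other by more than the mean difference with the ligand.

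At the squalene and lanosterol steps, Lss, which closes the sterol rings to give lanosterol, fell in both labels. Its floxed-labelled levels were 74.0, 55.3 and 63.5 CPM untreated and 59.1, 45.2 and 46.2 CPM with TGF-β1 (log2 −0.36, SE 0.13, edgeR adjusted p = 0.0318). These groups overlapped, since the treated library 1 lay above the untreated library 2. The knockout-labelled levels of Lss, at 63.2, 70.1 and 70.6 CPM untreated and 45.4, 52.2 and 55.1 CPM with TGF-β1, did not overlap (log2 −0.41, SE 0.13, edgeR adjusted p = 0.0156). Sqle, which makes the substrate of Lss, was at 85.9, 60.7 and 76.8 against 79.1, 57.9 and 63.6 CPM in floxed-labelled libraries, and at 63.2, 68.6 and 82.1 against 59.5, 63.0 and 66.5 CPM in knockout-labelled ones. Sqle did not pass the test in either label (log2 −0.16 and −0.18). Acat2, Hmgcs1, Fdps and Fdft1 did not pass it either, with log2 fold changes between −0.21 and 0.11 over both labels.

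Among the enzymes after lanosterol, Dhcr7, which catalyses a last reduction to cholesterol, fell in knockout-labelled cells from 42.4, 44.5 and 51.4 CPM to 34.9, 34.9 and 37.9 CPM, without overlap (log2 −0.36, SE 0.11, edgeR adjusted p = 0.0187). In floxed-labelled libraries Dhcr7 was at 44.2, 33.7 and 41.8 against 35.4, 31.1 and 37.0 CPM, with overlap (log2 −0.21, edgeR adjusted p = 0.165). Cyp51 was higher on average with TGF-β1, and did not pass the test (log2 0.17, SE 0.12, in floxed-labelled and 0.06 in knockout-labelled cells). Its floxed-labelled levels were 140, 102 and 111 CPM untreated and 148, 124 and 124 CPM with TGF-β1, and its knockout-labelled levels 111, 114 and 128 against 107, 126 and 134 CPM. Hsd17b7, which helps remove methyl groups from the ring, was at 19.6, 11.3 and 18.9 against 22.3, 18.6 and 18.6 CPM in floxed-labelled and at 16.8, 16.3 and 21.4 against 17.9, 15.7 and 21.6 CPM in knockout-labelled libraries. The other 5 enzymes of this stretch, Tm7sf2, Msmo1, Nsdhl, Ebp and Sc5d, did not pass the test and had log2 fold changes between −0.19 and 0.00. In all, 2 of 18 sterol enzymes (11.1%) in floxed-labelled and 4 of 18 (22.2%) in knockout-labelled cells were called, all lower, beside 33% and 34.6% of all genes tested. Fold changes were negative for 14 and 13 of the 18, beside 7250 and 7335 of the 14684 genes tested. With the library number as a block, 7 were lower and 2 higher in floxed-labelled cells, beside 19.5% and 20.1% of all genes tested. In knockout-labelled cells 6 were lower and 0 higher with the block, beside 20.1% and 20.2% of all genes tested.

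Of the 6 regulators, the main fit called only Srebf2, which encodes SREBP2, and only in knockout-labelled cells. It fell there from 263, 250 and 280 CPM to 212, 222 and 213 CPM (log2 −0.29, SE 0.06, edgeR adjusted p = 0.00135). In floxed-labelled libraries Srebf2 was at 256, 233 and 239 CPM untreated and 223, 216 and 212 CPM with TGF-β1. Those groups did not overlap either, and the difference fell just short of the threshold (log2 −0.16, SE 0.06, edgeR adjusted p = 0.0597). It passed the threshold in 7 of 17 alternatives. Among them were the block (edgeR adjusted p = 0.00744), DESeq2 and the fit without untreated library 2 (log2 −0.19, edgeR adjusted p = 0.0489). Insig1, the most abundant regulator, was at 140, 109 and 121 against 144, 116 and 126 CPM in floxed-labelled and at 114, 144 and 122 against 116, 140 and 125 CPM in knockout-labelled libraries. The same-numbered libraries of Insig1 thus differed little with the ligand, and its differences had 95% intervals from −0.19 to 0.32 and from −0.25 to 0.26. Srebf1 had log2 fold changes of 0.08 and −0.12, and Insig2, Scap and Stard4 stayed between −0.09 and 0.00. None of these 5 passed the test.

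In the fatty acid branch, Fads2, which encodes the first desaturase in the synthesis of long polyunsaturated fatty acids, rose in both labels. Without ligand the floxed-labelled libraries held 24.2, 15.6 and 19.9 CPM, and with TGF-β1 they held 60.8, 45.1 and 48.7 CPM. In knockout-labelled libraries these levels were 19.9, 20 and 20.6 CPM and 35.8, 46.2 and 37.3 CPM. Every treated library lay above every untreated library. The changes were 2.57-fold (log2 1.36, SE 0.16, edgeR adjusted p = 1.25e-06) and 1.97-fold (log2 0.98, SE 0.17, edgeR adjusted p = 9.87e-05). Fads1, the next desaturase of that route, rose from 140, 134 and 131 CPM to 246, 238 and 235 CPM in floxed-labelled libraries. In knockout-labelled libraries Fads1 rose from 137, 149 and 147 CPM to 228, 244 and 227 CPM. These are changes of 1.77-fold (log2 0.83, SE 0.05, edgeR adjusted p = 1.02e-10) and 1.61-fold (log2 0.69, SE 0.05, edgeR adjusted p = 1.59e-09). In the BMP4 groups Fads2 (15.1 to 23.9 CPM) and Fads1 (137 to 150 CPM) lay below every TGF-β1 library.

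Elovl6, which extends palmitate to stearate, went the other way. It was at 9.46, 5.10 and 8.19 CPM untreated and 5.35, 4.65 and 5.44 CPM with TGF-β1 in floxed-labelled libraries (log2 −0.56, SE 0.18, edgeR adjusted p = 0.0218). The untreated library 2 lay among the treated ones, and without the 3 floxed-labelled libraries numbered 1 the call of Elovl6 was lost (log2 −0.39, edgeR adjusted p = 0.214). In knockout-labelled libraries Elovl6 fell without overlap, from 7.68, 8.91 and 9.80 to 6.75, 5.55 and 5.65 CPM (log2 −0.56, SE 0.18, edgeR adjusted p = 0.0238). Acly was at 267, 238 and 262 against 248, 213 and 236 CPM in floxed-labelled libraries and did not pass the test there (log2 −0.14, edgeR adjusted p = 0.151). It fell in knockout-labelled libraries from 268, 260 and 286 to 229, 233 and 246 CPM (log2 −0.20, SE 0.07, edgeR adjusted p = 0.0318). Scd2 was at 78.2, 52.4 and 65.1 against 92.3, 74.4 and 75.4 CPM in floxed-labelled and at 61.8, 65.2 and 67.1 against 58.6, 80.7 and 63.8 CPM in knockout-labelled libraries, with overlap in both. Its floxed-labelled difference was log2 0.30 (edgeR adjusted p = 0.123), and it passed the test without the libraries numbered 1 (log2 0.35, edgeR adjusted p = 0.0405) or without untreated library 1 alone (log2 0.46, edgeR adjusted p = 0.029). The core enzymes Fasn and Acaca, with Me1 and Scd1, did not pass the test in either label and had log2 fold changes between −0.27 and 0.17.

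In the main fit, single libraries decided several of the smaller calls. Fads1, Fads2 and Mvk kept theirs in both labels, and Srebf2 in knockout-labelled cells, whichever library was left out. These runs took no account of the library number, and the fit with the block was not rerun without single libraries. With the block and all libraries, Lss and Elovl6 were called lower in both labels. In floxed-labelled cells Lss lost its call without untreated library 1 (log2 −0.25, edgeR adjusted p = 0.178) or 3 (−0.38, adjusted p = 0.0525) and without TGF-β1 library 2 (−0.31, adjusted p = 0.12) or 3 (−0.32, adjusted p = 0.114). Elovl6 lost it there without untreated library 1 (log2 −0.36, edgeR adjusted p = 0.159) or 3 (−0.52, adjusted p = 0.067) and without TGF-β1 library 2 (−0.51, adjusted p = 0.0804). In floxed-labelled cells 1 lower member was thus called without TGF-β1 library 2, untreated library 1 or untreated library 3 (4347, 4510 and 4387 genes in all). The main fit called 4841 genes in all. The number of lower members was 7 without untreated library 2 (4202 genes in all). Mvd, Dhcr7 and Idi1 were among the genes gained without that library (log2 −0.31, −0.32 and −0.48, edgeR adjusted p = 0.00925, 0.0341 and 0.03), and Pmvk was gained without TGF-β1 library 1 (log2 −0.34, adjusted p = 0.0415).

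In knockout-labelled cells 3 lower members were called without TGF-β1 library 1, 3 without TGF-β1 library 2, 4 without untreated library 2 and 2 without untreated library 3. In that order 4506, 4618, 4660 and 4566 genes were called in all, beside 5084 in the main fit. Without untreated library 3, Lss (log2 −0.39, edgeR adjusted p = 0.0524), Mvd (−0.22, adjusted p = 0.164), Dhcr7 (−0.27, adjusted p = 0.109), Elovl6 (−0.48, adjusted p = 0.0965) and Acly (−0.16, adjusted p = 0.136) all lost their calls. Without TGF-β1 library 1, Lss, Mvd, Dhcr7 and Acly lost theirs (edgeR adjusted p = 0.0873, 0.139, 0.0662 and 0.124). Without TGF-β1 library 2, Mvd, Dhcr7, Elovl6 and Acly did (edgeR adjusted p = 0.116, 0.0679, 0.0851 and 0.0986). Without untreated library 2, Lss, Mvd and Elovl6 did (edgeR adjusted p = 0.0537, 0.0881 and 0.0598). Elovl6 was also lost without TGF-β1 library 3 (edgeR adjusted p = 0.0801) and Acly without untreated library 1 (adjusted p = 0.0722). All of these members kept a negative fold change throughout, and the fit with the block on all libraries called each of them lower.

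**Figure D2:**
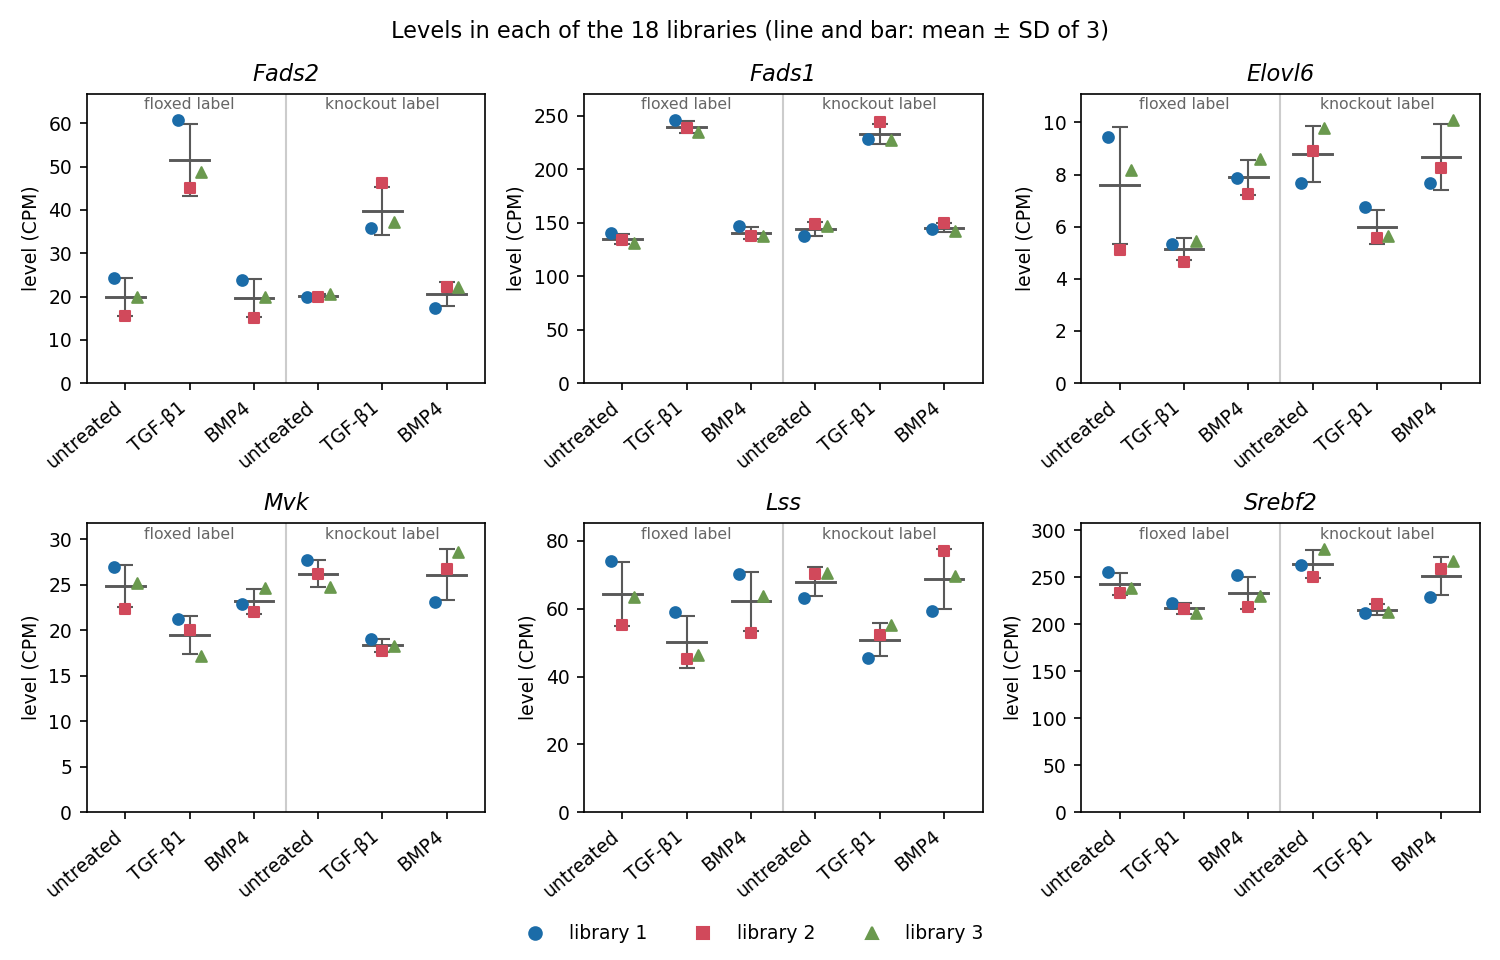
Level in CPM of 6 genes in each of the 18 libraries by group, with the mean ± SD of 3 libraries; colour and symbol give the library number. Fads2 and Fads1 with TGF-β1 lie above every other library, Mvk with TGF-β1 lies below the untreated libraries of the same label, and BMP4 libraries lie among the untreated ones for most genes.

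Same-numbered libraries deviated together within a genotype label, so a fit with the library number as a block within each label bears on these calls. With that block 5 of 33 members were called higher and 10 of 33 lower in floxed-labelled cells, against 39.5% of all genes tested (20.1% higher and 19.5% lower). The additional higher members were Scd2 (log2 0.32, SE 0.07, edgeR adjusted p = 0.000238 with the block), Cyp51 (0.18, adjusted p = 0.00726) and Hsd17b7 (0.28, adjusted p = 0.0327). The additional lower ones were Pmvk (log2 −0.26, edgeR adjusted p = 0.00547 with the block), Idi1 (−0.27, adjusted p = 0.00402), Mvd (−0.17, adjusted p = 0.0112), Sqle (−0.15, adjusted p = 0.0215), Dhcr7 (−0.21, adjusted p = 0.00701), Srebf2 (−0.16, adjusted p = 0.00744) and Acly (−0.14, adjusted p = 0.00799). In knockout-labelled cells the block gave 2 higher and 9 lower, against 40.3% of all genes tested (20.2% higher and 20.1% lower). It added Idi1 (log2 −0.37, edgeR adjusted p = 0.000226 with the block) and Sqle (−0.17, adjusted p = 0.0125). Counted over pairs of same-numbered libraries, 8 of 18 sterol enzymes (44.4%) were lower with TGF-β1 in all 3 pairs in each label, against 29.8% and 30.2% of all genes tested. Mvd was among the floxed-labelled ones with a log2 difference of only −0.0002256 in pair 2. The mean log2 difference of the 18 enzymes was −0.149, 0.0478 and −0.163 in floxed-labelled pairs 1 to 3. In knockout-labelled pairs it was −0.168, −0.115 and −0.148. With the block the sterol enzymes called in floxed-labelled cells were 7 lower (Mvk, Pmvk, Mvd, Idi1, Sqle, Lss and Dhcr7) and 2 higher (Cyp51 and Hsd17b7), and both higher enzymes act after lanosterol, as does Dhcr7 among the lower ones.

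The gap between the branches narrowed in every TGF-β1 library. The mean log2 CPM of the sterol enzymes exceeded that of the 9 fatty acid genes by 0.36, 0.41 and 0.45 in untreated floxed-labelled libraries 1 to 3, and by 0.08, 0.08 and 0.06 with TGF-β1. In knockout-labelled libraries the gap was 0.24, 0.21 and 0.33 untreated and −0.03, 0.03 and 0.11 with TGF-β1. With BMP4 it was 0.40, 0.37 and 0.33 in floxed-labelled and 0.27, 0.25 and 0.49 in knockout-labelled libraries, overlapping the untreated values. The TGF-β1 libraries did not overlap the others of their label. Without Fads1 and Fads2 the gap was 0.56, 0.65 and 0.67 untreated and 0.55, 0.55 and 0.52 with TGF-β1 in floxed-labelled libraries. It was 0.43, 0.39 and 0.53 against 0.36, 0.47 and 0.50 in knockout-labelled ones, so the floxed-labelled groups stayed apart by less and the knockout-labelled groups overlapped. Since the members were chosen with earlier results known, no p is given for these means.

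**Figure D3:**
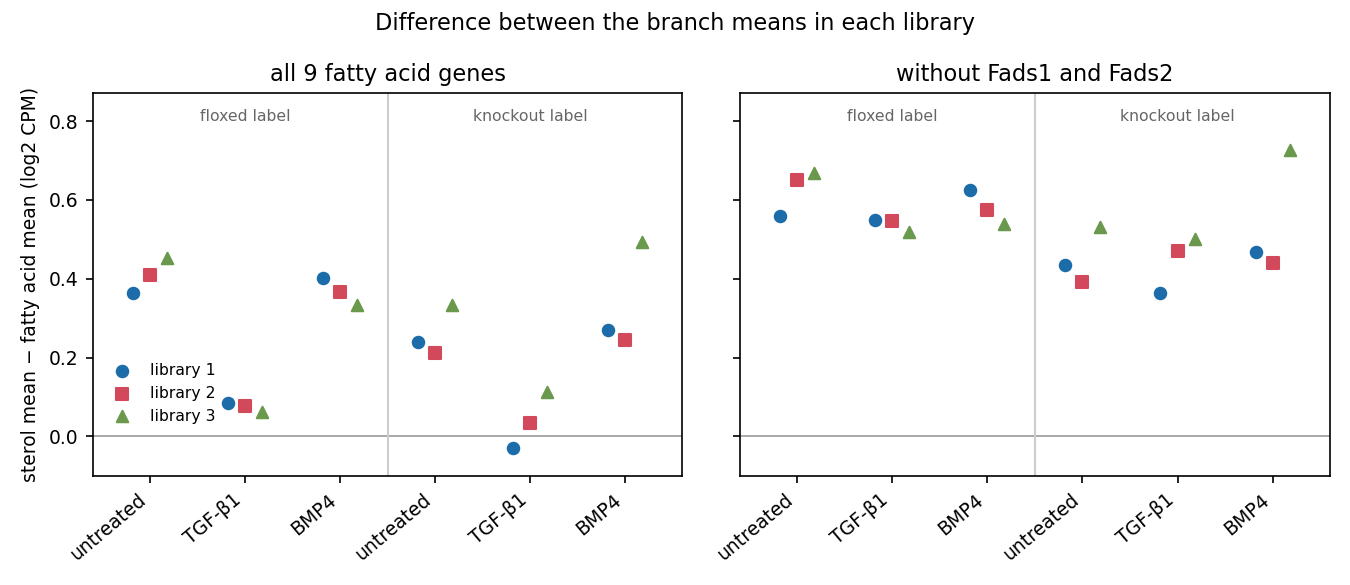
Mean log2 CPM of the 18 sterol enzymes minus that of the fatty acid genes in each library by group, with all 9 fatty acid genes (left) and without Fads1 and Fads2 (right); colour and symbol give the library number. On the left the TGF-β1 libraries lie between −0.03 and 0.11 and below all others; on the right they lie close to or among the untreated ones.

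Among the sterol enzymes, libraries of 1 group could differ more than the means of treated and untreated cells. In untreated floxed-labelled cells their mean log2 CPM was 5.54, 5.08 and 5.38 in libraries 1 to 3, a range of 0.46, while the group means with and without TGF-β1 were 5.24 and 5.33. All 18 sterol enzymes were above their group mean in library 1 of that group and 0 of 18 in library 2. Library 1 was the highest and library 2 the lowest of the floxed-labelled libraries given TGF-β1 (5.39, 5.13 and 5.21) and of those given BMP4 (5.51, 5.16 and 5.32) too. In knockout-labelled cells library 1 was lowest and library 3 highest in all 3 treatments, with means of 5.26, 5.36 and 5.42 for untreated cells, 5.10, 5.25 and 5.27 for TGF-β1 and 5.23, 5.43 and 5.49 for BMP4. The floxed-labelled libraries numbered 1 are those in which Lyz2 was nearly absent, and the part of that in the sterol levels was not tested. What the library number stands for is not given in the sources used here.

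**Figure D4:**
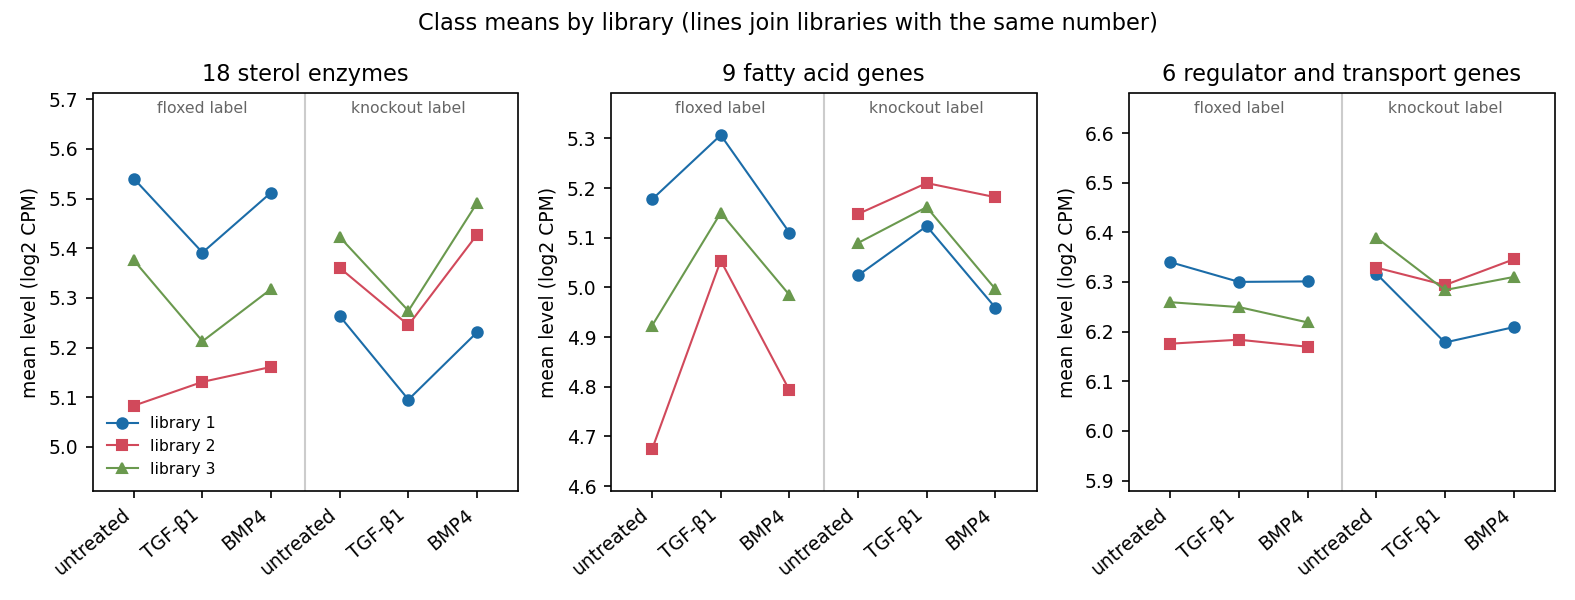
Mean log2 CPM of the 18 sterol enzymes, the 9 fatty acid genes and the 6 regulator and transport genes in each library, with lines joining same-numbered libraries of a label. For the sterol enzymes the floxed-labelled lines keep their order (1, 3, 2) across treatments, and so do the knockout-labelled ones (3, 2, 1).

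The members moved with each other from library to library within the groups. The deviation of each gene from its group mean was correlated with the mean deviation of the other sterol enzymes over the 18 libraries, which are not independent, since same-numbered libraries deviate together. Pearson's r had a median of 0.864 for the sterol enzymes (0.32 to 0.964), 0.691 for the fatty acid genes (0.188 to 0.919) and 0.596 for the regulators (−0.139 to 0.911), against −0.0157 over all genes tested. It was highest for Msmo1 (0.964, Spearman's rho 0.961, and 0.947 without the 2 libraries farthest from the median), with 0.985 in floxed-labelled and 0.909 in knockout-labelled libraries. Other genes differed more between the labels: r was 0.867 and −0.0476 for Ebp, 0.969 and 0.527 for Sc5d, 0.723 and −0.434 for Scd1, and −0.258 and 0.446 for Scap. For Srebf1 it was 0.154 and 0.809, and for Insig2 −0.439 and 0.317. The values that follow are over all 18 libraries unless a label is named. Fads2 was as close to the sterol enzymes (0.919, rho 0.88) as most enzymes of the branch, with 0.982 in floxed-labelled and 0.722 in knockout-labelled libraries. It rose with TGF-β1 while the sterol enzymes called by the main fit fell. Fasn (0.904) and the sterol carrier Stard4 (0.911) were also close, and Scd2 was at 0.863. Mvk, called lower in both labels, followed the branch less (0.493), as did Fads1 (0.526). Insig2 (−0.139) and Scap (−0.0484), the anchor and the escort of the SREBPs, and Tm7sf2 (0.32) did not follow it. Srebf2 was at 0.787 and Srebf1 at 0.406. The mean of the fatty acid genes without Fads1 and Fads2 had r = 0.851 (rho 0.775, and 0.755 without the 2 farthest libraries) with the sterol mean.

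**Figure D5:**
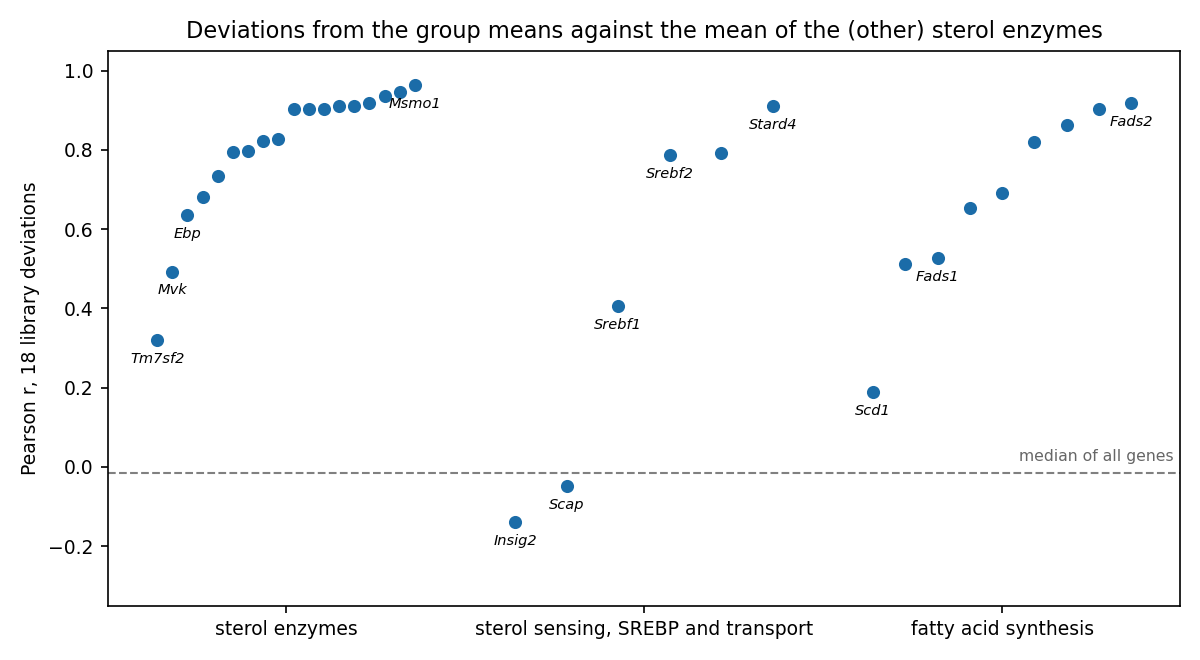
Pearson's r between the deviations of each gene from its group means and the mean deviation of the other sterol enzymes over 18 libraries, by class; the dashed line is the median over all genes tested (−0.0157). Most sterol enzymes lie above 0.7, Stard4 and Fads2 lie as high, and Insig2 and Scap lie near the line.

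BMP4 gave no call among the members in either label. Id3, the check of this ligand, was low in floxed-labelled BMP4 library 1 (1.88 CPM). The background was 0% of all genes tested in floxed-labelled and 0.572% in knockout-labelled cells (0.129% higher and 0.443% lower). With the block it was 0.361% (0.109% higher and 0.252% lower) and 3.21% (1.14% higher and 2.08% lower), again with 0 members. At an unadjusted p under 0.05 there was 1 of 33 members in each label, Srebf1 in both (log2 −0.10 and −0.13), against 7.51% and 12.2% of all genes; DESeq2 and limma also called 0 members. Log2 fold changes of the members ran from −0.15 to 0.15 in floxed-labelled and from −0.20 to 0.29 in knockout-labelled cells. The 95% intervals lay within −0.5 and 0.5 for 31 of 33 and 30 of 33 genes. Lss illustrates the overlap, with 70.1, 52.9 and 63.6 CPM in floxed-labelled and 59.4, 77.0 and 69.6 CPM in knockout-labelled libraries given BMP4. Elovl6 was at 7.85, 7.26 and 8.60 CPM and at 7.68, 8.24 and 10.1 CPM in those groups. Srebf2 was at 252, 218 and 230 CPM and at 229, 259 and 267 CPM. Mvd was at 73.5, 58.0 and 67.5 CPM and at 64.4, 69.8 and 69.7 CPM. Each of these sets overlapped the untreated libraries of its label.

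The other genes described by library showed as little with BMP4. Of the early enzymes, Pmvk was at 31.2, 25.7 and 27.7 CPM in floxed-labelled and 22.2, 25.3 and 23.5 CPM in knockout-labelled libraries given BMP4, and Idi1 at 48.4, 33.2 and 40.6 CPM and 33.9, 37.6 and 47.8 CPM. Sqle was at 83.4, 61.6 and 66.5 CPM and 66.9, 77.7 and 85.2 CPM. Floxed-labelled library 2 was again the lowest of its group for all 3 genes. Of the late enzymes, Cyp51 was at 148, 105 and 125 CPM and 111, 130 and 125 CPM, Hsd17b7 at 19.0, 13.6 and 17 CPM and 13.8, 17.1 and 18 CPM, and Dhcr7 at 41.4, 33.4 and 44.0 CPM and 41.6, 46.9 and 51.1 CPM. Insig1 was at 154, 113 and 119 CPM and 120, 149 and 127 CPM. These levels lay around the untreated ones. In the fatty acid branch, Acly was at 258, 227 and 267 CPM and 243, 267 and 274 CPM, and Scd2 at 85.3, 57.1 and 62.3 CPM and 58.5, 64.0 and 61.7 CPM. Fads2 was at 23.9, 15.1 and 19.8 CPM and 17.4, 22.3 and 22.1 CPM, and Fads1 at 147, 137 and 137 CPM and 144, 150 and 142 CPM. The desaturases that rose with TGF-β1 thus kept close to their untreated levels in the BMP4 libraries.

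The genotype label made no difference that passed the test in any member. Knockout-labelled against floxed-labelled cells gave 0 of 33 calls untreated (background 2.39%: 1.29% higher and 1.1% lower), with TGF-β1 (0.388%: 0.136% higher and 0.252% lower) and with BMP4 (0.0272%: 0.00681% higher and 0.0204% lower). At an unadjusted p under 0.05 there were 5, 3 and 4 members (15.2%, 9.09% and 12.1%), beside 17.5%, 12.5% and 7.91% of all genes tested. With TGF-β1 these were Fads2, Fdps and Scap (log2 −0.37, 0.49 and 0.13). Untreated Pmvk was at a lower level in knockout-labelled cells (17.8, 23.7 and 24.3 against 30.5, 26.9 and 27.8 CPM) at an edgeR adjusted p = 0.0766 (log2 −0.38, SE 0.11), while DESeq2 called it. Scap had a positive difference without overlap in all 3 treatments (log2 0.17, 0.13 and 0.16) and passed the test in none. Untreated Srebf1, Acaca and Me1 had log2 differences of 0.14, 0.26 and 0.30, with edgeR adjusted p = 0.126, 0.164 and 0.255. With BMP4, Pmvk, Srebf1 and Acaca were among the 4 members again.

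The response to TGF-β1 was also compared between the labels as an interaction, in which 0 of 33 members passed the test against 0.00681% of all genes tested, with and without the block. The difference (knockout-labelled minus floxed-labelled response) was negative for 27 of 33 members, with a median of −0.08 against −0.00 over all genes tested. Many members moved together from library to library, so these signs are not separate observations and do not show a response that depends on the label. An unadjusted p under 0.05 was found for 1 member (3.03%), beside 3.36% of all genes tested. Without the floxed-labelled libraries numbered 1 the members' median was −0.14. The member with the low unadjusted p was Srebf1 (log2 −0.20, SE 0.07, edgeR adjusted p = 1). For Fads2 the difference was −0.38, with a 95% interval from −0.86 to 0.10, and for Fads1 −0.14 (−0.29 to 0.01). For Mvk it was −0.16 (−0.44 to 0.12) and for Srebf2 −0.13 (−0.32 to 0.06). The main fit called Dhcr7, Mvd, Srebf2 and Acly in knockout-labelled cells alone, and the fit with the block called them in both labels. These genes are thus not shown to respond differently between the labels. For BMP4 the interaction was called for 0 of 33 members against 0% of all genes (0.0477% with the block, all lower and again 0 members), with 0 members at an unadjusted p under 0.05. These comparisons share their untreated libraries, and the intervals carry the spread of all 4 groups.

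Genes that border the members in metabolism were taken from 5 lists chosen by pathway. Of 10 genes of sterol export, storage and oxysterol formation, 5 rose and 1 fell with TGF-β1 in each label (60%, beside 33% and 34.6% of all genes tested). Values below are given for floxed-labelled and then knockout-labelled cells, and the treated and untreated libraries did not overlap for any gene named from these lists. The cholesterol exporter Abca1 rose by log2 1.17 and 1.09 (SE 0.14 and 0.14). Mylip, an LXR target that marks lipoprotein receptors for degradation, rose by log2 1.14 and 1.07, Abcg1, a second sterol exporter, by 0.92 and 0.79, and Npc1, which releases cholesterol from lysosomes, by 0.35 and 0.29. Ch25h, at low levels, rose by log2 1.82 and 1.37 (from 1.67 to 5.97 and from 1.54 to 4.00 CPM). Cyp27a1, which oxidises the sterol side chain, fell by 0.85 and 0.79 on the log2 scale.

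Of 9 genes that supply acetyl-CoA or NADPH, 4 fell and none rose in each label (44.4%, beside 33% and 34.6% of all genes tested, of which 16% and 17.1% were lower). They were Acss2, which makes acetyl-CoA from acetate (log2 −0.56 and −0.72), G6pdx, the entry enzyme of the pentose phosphate pathway (−0.48 and −0.50), Idh1 (−0.29 and −0.22) and citrate synthase Cs (−0.13 and −0.14). Without the floxed-labelled libraries numbered 1, Cs lost its call there (edgeR adjusted p = 0.143) and 3 genes were lower. Of 10 genes of the isoprenoid branch and other sterol steps, Lbr fell in both labels, from 36.7 to 12.1 CPM and from 38.1 to 12.6 CPM (log2 −1.59, SE 0.12, and −1.59, SE 0.13). Lbr encodes a nuclear membrane protein with the same sterol reductase activity as Tm7sf2, and its estimated change was larger than that of any sterol enzyme among the members. Lbr was the only call of this list in floxed-labelled cells (10%). In knockout-labelled cells Pggt1b also fell (log2 −0.29) and Ggps1 rose (log2 0.23), which makes 30% of the list. Without the floxed-labelled libraries numbered 1, Ggps1 passed the test as higher in floxed-labelled cells too (edgeR adjusted p = 0.0438).

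Of 21 measured genes of fatty acid elongation, activation and esterification, 4 rose and 2 fell in each label (28.6%, beside 33% and 34.6% of all genes tested). Acsl1, which activates long-chain fatty acids, rose from 107 to 196 CPM and from 118 to 204 CPM (log2 0.87 and 0.79). Hacd2, a dehydratase of the elongation cycle, rose by log2 0.81 and 0.69, and Lpin2 by 0.46 and 0.41. Lpin1, a phosphatidate phosphatase, fell from 44.3 to 18.2 CPM and from 46.5 to 18.2 CPM (log2 −1.28 and −1.35), so the paired lipins went opposite ways. Elovl5, which elongates the product of Fads2, fell by 0.32 and 0.37 on the log2 scale. Among the genes of SREBP processing, Sec24d, a coat protein of vesicles that leave the endoplasmic reticulum, rose (log2 0.30 and 0.32). With the block the isoprenoid list had 2 lower in floxed-labelled cells, the acetyl-CoA and NADPH list 5 lower in each label, and the elongation list 6 higher and 2 lower in floxed-labelled and 5 higher and 3 lower in knockout-labelled cells, beside 39.5% and 40.3% of all genes tested. With BMP4 edgeR called 0 genes of the other 4 lists in either label, and with the block 1 export gene was higher and 1 lower in knockout-labelled cells. At an unadjusted p under 0.05, 3 elongation genes (14.3%) were found with BMP4 in floxed-labelled cells, beside 7.51% of all genes tested, and 3 export genes (30%) in knockout-labelled cells, beside 12.2%.

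Fads1 and Fads2 lie side by side on chromosome 19 (mm10), Fads2 at 10064164 to 10101503 on the minus strand and Fads1 at 10182888 to 10196870 on the plus strand. The genes around them were looked at after their values were seen. Of the 9 genes tested within 200000 bases of Fads1, the third desaturase gene Fads3 (10041548 to 10059671) rose from 5.94 ± 0.293 to 8.68 ± 1.12 CPM in floxed-labelled and from 5.61 ± 0.0938 to 7.59 ± 1.23 CPM in knockout-labelled cells (SD, n = 3). Its log2 fold changes were 0.55 (edgeR adjusted p = 0.00618) and 0.43 (edgeR adjusted p = 0.0361). Dagla (10245265 to 10304877), which encodes a diacylglycerol lipase, rose from 8.64 ± 0.768 to 22.1 ± 1.76 CPM and from 10.4 ± 0.602 to 22.9 ± 2.11 CPM (log2 1.35 and 1.14, edgeR adjusted p = 1.11e-07 and 1.29e-06). Its rise was about the size of that of Fads2. Rab3il1, on the other side, fell slightly (log2 −0.19 in both labels), and Fth1, Best1, Fen1 and Tmem258 did not pass the test in either label. With the block Fen1 passed in floxed-labelled cells (edgeR adjusted p = 0.0431). Fen1 and Tmem258, which lie between Fads1 and Dagla, had log2 fold changes of 0.47 and 0.08 in floxed-labelled and 0.30 and 0.16 in knockout-labelled cells.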

How the data were processed

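RNA was sequenced as polyadenylated RNA in 18 libraries. Per the submitters' processing notes, the authors used TopHat2 2.0.9, HTSeq 0.6.1 and Cufflinks 2.1.1 with mm10 (GRCm38.p6), and whether counting used strand is not given in the sources used here. The authors deposited whole-number counts per gene and FPKM values, and in the deposited table each FPKM equals the count divided by gene length and a constant per library, within 1e-06, in 100% of values. A further 78 per-library columns, which stand beside the gene descriptions, were not used.

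Members were matched by gene name. The members, pathway lists and markers were chosen with earlier results of these data known. Counts were scaled with TMM factors and tested with edgeR 4.0.16 (R 4.3.3) by its quasi-likelihood test over the 6 groups, after filterByExpr left 14684 genes, with Benjamini-Hochberg adjustment over all of them and a threshold of 0.05. The fit had 12 residual degrees of freedom and a biological coefficient of variation of 8.86%. The library totals of 15153296 to 24639163 counts set the counting error, and the spread between 3 libraries a group sets the rest. The procedure was also run on simulated counts with the same dispersion for every gene and no effect of library number. That run therefore does not bear on the pairing of libraries.

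All 33 members are named with their levels. Values per library are printed for members called by the main test or with the block, and for the 2 most abundant of each class. Of the pathway lists, up to 4 called genes a direction are named by lowest adjusted p, and Ch25h is named in addition. Some results of the SREBP processing list are not reported here. The genes around Fads1 were chosen after their values were seen.

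The replicate numbers of the labels were checked over 8601 genes. Same-numbered libraries of a genotype label had deviations from their group means that correlated at 0.406 to 0.66 in floxed-labelled and 0.334 to 0.731 in knockout-labelled cells. Between the labels the same numbers gave −0.337 to 0.08. The numbers were therefore taken to pair libraries within a label, from the data alone, since the labels do not say what a number marks.

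Alternatives were DESeq2 1.42.0, limma 3.58.1 on log2 FPKM with pseudocounts of 1 and 0.1, scaling by total counts, no filter or a minimum of 1 CPM on low counts, the replicate block, leaving out each library, and leaving out the floxed-labelled libraries numbered 1. Promoter windows came from a RefSeq table of build GRCm38.p6. No sequence was matched there for Fads1, Fdps, Fdft1, Sqle, Scd1 and Scd2. Windows on chromosome 18 were left out before matching, so Stard4 had none.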

Additional observations from a re-analysis of the deposited data

How the results depend on the processing

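No alternative reversed the direction of a member called in the main test. Fads1 kept its call in all 17 alternatives in both labels (log2 0.79 to 0.86 and 0.66 to 0.72), as did Fads2 (1.21 to 1.53 and 0.87 to 1.06) and Mvk, and Srebf2 did in knockout-labelled cells. Elsewhere counts of called members moved with the settings. For TGF-β1 in floxed-labelled cells, the lower members were 1 with limma on log2(FPKM + 1) and 1 with log2(FPKM + 0.1), 6 without the filter on low counts and 5 with scaling by total counts. Of all genes, these settings called in either direction 4634 and 4661 of 14684, 4733 of 29506 and 4870 of 14684. The replicate block within genotype label gave 5 higher and 10 lower there (5805 of 14684 genes called). A block shared by both labels gave 2 and 3 (5025 of 14684 genes called). Leaving out each library, without the block, gave 1 to 7 lower members in floxed-labelled cells. There was 1 without TGF-β1 library 2, untreated 1 or untreated 3 (4347 of 15098, 4510 of 15118 and 4387 of 15130 genes called). There were 7 without untreated 2 (4202 of 15103 genes called). In knockout-labelled cells there were 2 (without untreated 3, 4566 of 15103 genes called) to 6 (without TGF-β1 library 3 or untreated 1, 4352 of 15115 and 4439 of 15070). Without the filter, knockout-labelled against floxed-labelled cells gave 1 higher (Fasn) and 1 lower member (Pmvk) untreated and 2 lower members (Fads2 and Scd2) with TGF-β1. Of all genes, 817 and 394 of 29506 were called there. DESeq2 gave 1 lower member untreated (Pmvk), beside 518 of 14682 genes called. For each of these changes in counts the cause was not tested. BMP4 gave 0 called members in every alternative run. Without the block, most differences of the sterol enzymes did not pass the test with 3 libraries a group. With it 7 lower and 2 higher of 18 passed in floxed-labelled cells, beside 19.5% and 20.1% of all genes tested. In knockout-labelled cells 6 lower of 18 passed with it, beside 20.1% of all genes tested.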
